A study of Mus musculus with 16 samples.

Results

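The cells described here are splenic CD8+ T cells with a memory-like profile and no Gzma transcript, drawn from the 4 libraries of sorted splenic CD8+ cells in a mouse tumor study. They were chosen by their own raw counts of unique molecular identifiers (UMIs, 1 for each captured transcript). A cell needed at least 1 UMI of Cd8a or Cd8b1, at least 1 of Cd3e, Cd3d or Cd3g and at least 2 in the sum of Eomes, Cxcr3 and Klra7, and it could hold no Gzma, Klrg1, Ncr1, Klrb1c or Siglech and at most 1 UMI of Cd79a. The 16 libraries of the series hold 37609 cell barcodes, of which 10856 lie in the 4 splenic CD8+ libraries. Of these, 10399 met the conditions on Cd8a, Cd8b1, the CD3 genes, Ncr1, Klrb1c, Cd79a and Siglech and are called CD8 T cells, and 1467 passed the whole rule. Because the listed genes selected the cells, their levels are given as a description only.

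The study crossed *Aire* genotype with PD-1 blockade. Littermate *Aire*+/+ and *Aire*-/- females on a C57BL/6 background, 8 weeks old, carried subcutaneous tumors of MC38, a mouse colon adenocarcinoma line, and received the anti-PD1 antibody RMP1-14 or its rat IgG2a isotype control 2A3. Spleens taken on day 19 were pooled within each condition and sorted, and each condition gave 1 droplet library of CD8+ cells. The 4 groups are therefore *Aire*+/+ with isotype, *Aire*+/+ with anti-PD1, *Aire*-/- with isotype and *Aire*-/- with anti-PD1, and values for the 4 libraries are given in that order throughout. With 1 library of pooled animals per condition, animal, pool and condition cannot be told apart, and no test between conditions was run. With no repeat library within a condition, a test of genotype or treatment would have to assume that their effects add. All intervals are exact 95% intervals for counting error only, and they take no account of UMIs that lie together in few cells.

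Memory CD8 T cells form after naive cells meet antigen, and cells with a similar surface profile also form in response to cytokines without foreign antigen and are then called virtual memory cells. Eomes is a T-box transcription factor that sustains responsiveness to IL-15 in such cells, and Cxcr3 is the receptor for chemokines induced by interferon gamma. Klra7 encodes a receptor of the Ly49 family, lectin-like proteins that bind major histocompatibility complex (MHC) class I and are best known from natural killer (NK) cells, while Gzma and Klrg1 mark cells further along effector differentiation.

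The 4 libraries held 2902, 2966, 2355 and 2633 barcodes with 20137112, 19210780, 15624058 and 16286885 UMIs, and a median of 6401, 6291.5, 6267 and 5797 UMIs per barcode. Memory-like cells numbered 368, 314, 337 and 448 and were deeper, with medians of 8928, 8437, 8468 and 7746 UMIs. A rule that asks for UMIs favors deep cells, so the level of a gene is given as CPM, its UMIs as a fraction of all UMIs summed over the memory-like cells of a library. Their median mitochondrial share was 3.18%, 4.29%, 3.99% and 3.27%. Pairs of these libraries shared 8 to 13 barcodes, and 18 memory-like cells carried a barcode found in more than 1 of the 4. Aire had 0 UMIs in all 4 libraries, and the splenic CD45+ libraries held 2, 5, 4 and 0, with 4 in the *Aire*-/- isotype library, so Aire counts did not separate the genotypes.

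A pair of reference populations was formed in the same libraries from CD8 T cells under the same conditions. Marker-negative cells had no UMI of Eomes, Cxcr3, Klra7, Gzma or Klrg1 and numbered 7229 (2043, 2153, 1460 and 1573). Gzma/Klrg1-positive cells had at least 2 UMIs of Gzma and Klrg1 together and numbered 400 (42, 34, 169 and 155). Their median depths over the 4 libraries were 5884 and 5182 UMIs, against 8310 for the memory-like cells.

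The markers of the label were carried unevenly. Cd8a, the CD8 alpha chain, stood at 489, 453, 520.3 and 576 CPM and was counted in 95.02% of the memory-like cells, and Cd8b1, its partner chain, stood at 1403, 1284, 1392 and 1558 CPM. Eomes reached 168, 181, 192 and 213 CPM and Cxcr3 209, 203, 216 and 219.6 CPM, close to level over the 4 libraries. Klra7 was lower, at 53.4, 68.9, 48.4 and 48.8 CPM, and only 13.02% of the cells held a Klra7 UMI, so most passed the rule without it. Gzmm, which encodes the serine protease granzyme M and was not part of the rule, was at 116, 82.2, 84.8 and 76.6 CPM, highest in the *Aire*+/+ isotype library.

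Gzmm was counted in 25.4% of memory-like cells, 0.678% of marker-negative cells, 21.5% of Gzma/Klrg1-positive cells and 0.104% of B cells, the last taken from the CD45+ spleen libraries as a type that lacks the gene, with a median of 4282 UMIs. With every cell thinned at random to 2000 UMIs the shares were 11.3%, 0.321%, 8.12% and 0.0352%. Memory-like cells therefore carried Gzmm well above the level in B cells at equal depth, but as a population in which most cells gave no Gzmm count. Ccl5, a chemokine of memory and effector T cells, was counted in 65.6% of memory-like cells, 7.69% of marker-negative cells, 97.8% of Gzma/Klrg1-positive cells and 0.797% of B cells, or 56.8%, 4.37%, 96.2% and 0.423% after thinning. Il2rb, the receptor chain shared by IL-2 and IL-15, was found in 81.3%, 33.2%, 78.5% and 0.451% of the same populations, or 45.6%, 14.1%, 52.8% and 0.176% after thinning. For both genes memory-like cells stood above marker-negative cells at equal depth.

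Some markers of other cell types were at 0 in the memory-like cells and others were not. The 15 measured B cell genes summed to 1336, 301, 296 and 448 CPM, the most abundant over the 4 libraries together being Cd37 at 274, 263, 243 and 244 CPM, which T cells also express. In the *Aire*+/+ isotype library Cd74 and MHC class II genes gave more of the sum than Cd37 did. Ebf1 and Pax5, transcription factors that define B cells, had 0 UMIs. The 14 myeloid genes summed to 586, 223, 236 and 299.8 CPM, led by Cst3 at 400.4, 76.3, 82.8 and 143 CPM, with Csf1r and C1qc at 0. B cell and myeloid sums were both highest in the *Aire*+/+ isotype library.

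Class II RNA sat in few barcodes. Over the 4 libraries 7 memory-like cells (4, 0, 1 and 2) had at least 5 UMIs of the MHC class II genes H2-Aa, H2-Ab1 and H2-Eb1, and they held 1881 of the 1902 class II UMIs and 2312 of the 2396 UMIs of Cd74, the class II invariant chain. Cd74 stood at 569, 7.002, 13.1 and 104 CPM. The 4 such cells of the *Aire*+/+ isotype library had a median of 22265 UMIs and held 128 of the 229 UMIs of Irf8, a factor of dendritic and B cells. Whether these barcodes hold more than 1 cell was not tested. They were kept, since leaving them out, an alternative added after the data were seen, moved no share ratio and no count of genes past the fold by over 1.5 times.

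Neutrophil, erythroid and platelet genes were at or near 0 in the memory-like cells. All 7 neutrophil genes had 0 UMIs, the 8 erythroid and platelet genes summed to 6.39, 0.369, 1.37 and 3.31 CPM, and Cd4 stood at 0, 1.11, 0.687 and 0 CPM. The 9 genes of CD4 and regulatory T cells summed to 87.1, 59.3, 54.3 and 54.8 CPM, with Izumo1r as the most abundant at 26.1, 20.3, 19.2 and 22.3 CPM. The 7 measured genes of plasmacytoid dendritic cells summed to 218, 157, 165 and 204 CPM, led by Bst2 at 125, 106, 119.5 and 143 CPM, which T cells also express, with Klk1 at 0. The 9 measured NK cell genes outside the rule summed to 429, 297, 279.6 and 352 CPM against 162, 171, 164 and 205 CPM in marker-negative cells. Khdc1a was at 0. Over the 4 libraries together Txk, a kinase that T cells express too, was the most abundant, at 168, 184, 170.3 and 174 CPM. Txk was near level in marker-negative cells, at 147, 142, 148 and 152 CPM, so most of the gap lay in other genes of the list. In the *Aire*+/+ isotype library Xcl1 had more UMIs than Txk, 813 against 578. Among 6 measured genes of gamma-delta and innate-like T cells, Sox13, Blk and Il17a were at 0 and Cd163l1, a scavenger receptor, gave 10.5, 17.7, 17.9 and 14.1 CPM. Against marker-negative cells the B cell list had a median log2 ratio of −0.80 and the myeloid list 0.62, and against Gzma/Klrg1-positive cells they had 0.37 and −2.44. Over 4 erythroid and platelet genes the median against marker-negative cells was −4.34, with 0 genes past the fold. Marker-negative cells of the *Aire*+/+ isotype library held 389.8 CPM of that list, against 1.32, 2.94 and 2.19 CPM in the others. The part these other-lineage counts play in the results was not tested. Of the 355 genes on the lists, 18 have no row in the files, among them constant chains of the T cell receptor and immunoglobulins, and were not analysed here.

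Eomes and Cxcr3 without Klra7 was the commonest combination, in 621 cells (42.3%). Cells with only Cxcr3 numbered 398 (27.1%) and cells with only Eomes 257 (17.5%), while all 3 genes were counted in 114 (7.77%). Cxcr3 with Klra7 was found in 48, Eomes with Klra7 in 22 and Klra7 alone in 7. Any Eomes was counted in 69.1% of the cells, any Cxcr3 in 80.5% and any Klra7 in 13.0%. By library, any Klra7 was counted in 13.04%, 14.3%, 14.8% and 10.7% of the cells and any Eomes in 64.7%, 68.8%, 71.5% and 71.2%.

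Cells on either side of the lower threshold were compared. Memory-like cells at a marker sum of exactly 2 numbered 571, 38.9% of all, with a median of 7634 UMIs, and 1207 CD8 T cells lay just outside it at a sum of 1 with a median of 6794. Ccl5 stood at 2840.4, 2528, 1867 and 2321 CPM just inside and 1825, 1306, 1540.3 and 1232 CPM just outside, and Il2rb at 248, 354, 316 and 225 against 138, 195, 235 and 176 CPM. Igfbp4, a growth factor binding protein, ran the other way, at 88.6, 53.6, 98.9 and 103 CPM inside and 152, 171, 114 and 148 CPM outside. Gzmm stood at 55.8, 56.4, 40.5 and 45.98 CPM inside and 19.6, 33.8, 41.2 and 22.2 CPM outside, and the ranges of Gzmm and of Il2rb overlapped while those of Ccl5 and Igfbp4 did not. For the rule's own genes, Eomes was at 99.2, 110.01, 115 and 119 against 75.2, 76.5, 84.9 and 75.2 CPM, Cxcr3 at 128, 137, 128 and 149.99 against 55.1, 61.8, 57.1 and 82.4 CPM and Klra7 at 2.66, 1.91, 1.88 and 3.77 against 0.911, 0.445, 1.03 and 0.964 CPM. On the other side of the rule, 96 CD8 T cells had exactly 1 UMI of Gzma or Klrg1 and belong to none of the 3 populations.

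Memory-like cells made up a larger share of CD8 T cells in the spleens of *Aire*-/- mice given anti-PD1 than in the other 3 libraries. The shares were 13.3% (12.1 to 14.7), 11.1% (9.93 to 12.3), 14.9% (13.4 to 16.4) and 17.7% (16.2 to 19.2). The *Aire*-/- anti-PD1 library was highest and the *Aire*+/+ anti-PD1 library lowest, and their intervals do not overlap. *Aire*-/- over *Aire*+/+, the ratio of shares was 1.11 (0.958 to 1.30) with isotype and 1.60 (1.38 to 1.85) with anti-PD1. Anti-PD1 over isotype, it was 0.830 (0.712 to 0.968) in *Aire*+/+ and 1.19 (1.03 to 1.38) in *Aire*-/- mice, opposite in direction. Whether the effect of anti-PD1 differed between genotypes was not tested.

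After thinning to 2000 UMIs fewer cells pass the rule, and the shares were 2.95%, 2.33%, 2.94% and 4.92%, again highest in the *Aire*-/- anti-PD1 library, with ratios of 2.11 (1.54 to 2.91) for genotype under anti-PD1 and 1.68 (1.23 to 2.31) for anti-PD1 in *Aire*-/- mice, and of 0.996 (0.705 to 1.40) for genotype under isotype. CD45+ cells of the same spleens were run as separate libraries with 149, 169, 157 and 204 CD8 T cells, of which 14.8% (9.49 to 21.5), 15.98% (10.8 to 22.4), 13.4% (8.47 to 19.7) and 21.6% (16.1 to 27.9) passed the rule. There the *Aire*-/- anti-PD1 library was also highest, at 1.35 (0.818 to 2.27) over *Aire*+/+ anti-PD1 and 1.61 (0.939 to 2.86) over *Aire*-/- isotype, but anti-PD1 over isotype in *Aire*+/+ was 1.08 (0.593 to 1.99), against 0.830 in the CD8+ libraries, and *Aire*-/- over *Aire*+/+ under isotype was 0.906 (0.474 to 1.73), against 1.11. All 4 ratios from the CD45+ libraries have intervals that include 1. Gzma/Klrg1-positive cells made up 1.52%, 1.20%, 7.45% and 6.12% of splenic CD8 T cells, in the same order of libraries.

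**Figure D1:**
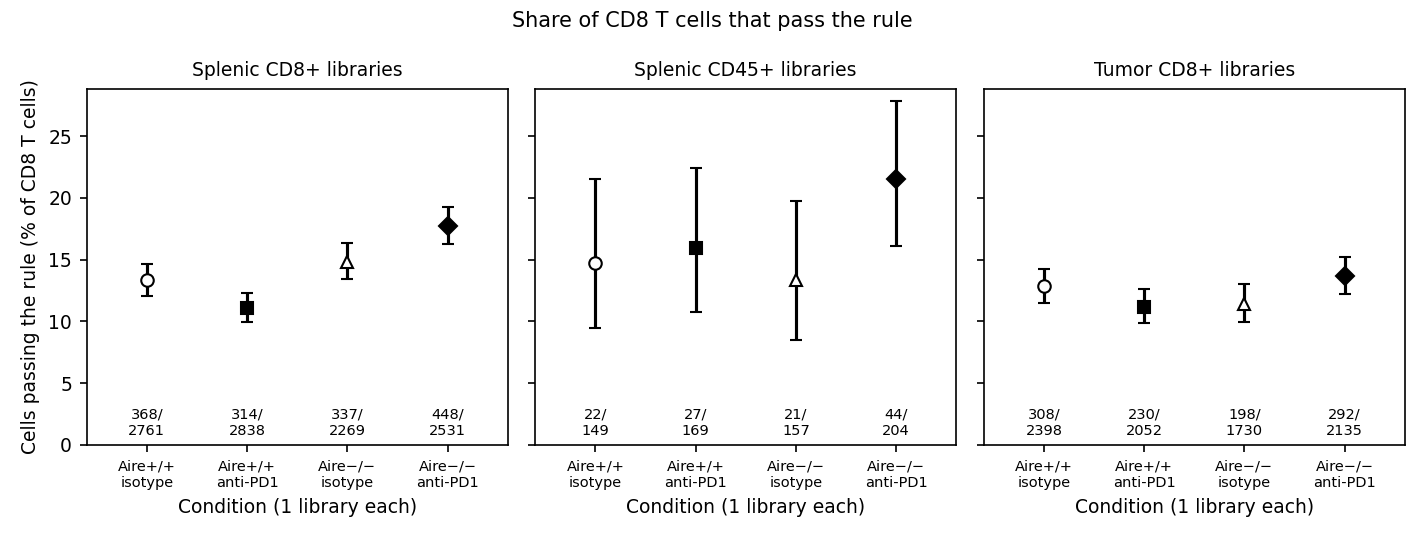
Percent of CD8 T cells that pass the rule in each library (y axis), by condition (x axis), for sorted splenic CD8+ cells, splenic CD45+ cells and tumor CD8+ cells; points are single libraries, bars are exact 95% intervals and the counts at the base are cells passing over CD8 T cells. Among splenic CD8+ libraries the share runs from 11.1% to 17.7%.

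Memory-like cells differed from marker-negative CD8 T cells of the same spleens mainly by genes they carried in addition. Outside the rule, 265 of 10464 genes with at least 40 UMIs (2.53%) were past 2-fold higher in all 4 libraries and 58 (0.554%) past 2-fold lower, with a median log2 ratio of 0.02 over all genes tested. The rule chose the cells, so these counts are a description. Where a side held 0 UMIs, the ratio is a bound taken with 3 counts in place of 0, and it enters the medians at that bound. The 15 genes furthest apart on the higher side were led by receptors of the Ly49 and NK lectin families.

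Klre1, a lectin-like receptor of NK and T cells, stood at 18.3, 25.8, 26.8 and 36.9 CPM in memory-like and 0.393, 0.232, 0.340 and 0.346 CPM in marker-negative cells, 46.5- to 111-fold higher. Klra23 stood at 121, 130.1, 123 and 154 against 0.393, 1.78, 2.83 and 3.80 CPM, Klra12 at 57.2, 63.02, 62.5 and 70.8 against 0.472, 0.774, 2.04 and 1.04 CPM and Klra6 at 10.5, 15.5, 8.59 and 12.4 against 0.393, 0.542, 0.340 and 0.115 CPM. These are Ly49 genes, and all 3 had no library of memory-like cells below any library of marker-negative cells. Klra1, a further Ly49 gene, gave 8.42, 16.2, 10.3 and 7.44 against 0.393, 0.464, 0 and 0.461 CPM, at least 16.1-fold higher. The Ly49 genes are close copies of one another, so reads may be assigned to the wrong member or dropped, and the level of a single member is uncertain. Klra7 is itself a Ly49 gene of the rule, and marker-negative cells lack it by definition. Reads of Klra7 may thus be counted for its copies, and the part of the selection in the Ly49 gaps was not tested. Of 11 tested genes on the Ly49 and NK lectin list, 9 were past 2-fold higher and none lower, with a median log2 ratio of 4.05. The list includes Klrc1, which encodes the inhibitory receptor NKG2A, at 48.2, 41.3, 63.5 and 53.2 against 2.99, 3.40, 2.15 and 4.03 CPM, and Klrk1, which encodes the activating receptor NKG2D, at 46.7, 29.8, 64.2 and 35.3 against 3.46, 3.33, 3.06 and 5.07 CPM. Klrd1, the CD94 partner of NKG2A and the most abundant gene of the list, was level in both, at 258, 242, 252 and 269 and 252, 218, 208 and 239.7 CPM.

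Genes of cytotoxic granules were partly raised. Gzmm was 35.001- to 74.9-fold higher than the 1.89, 2.24, 1.13 and 2.19 CPM of marker-negative cells, and Gzmb, which encodes granzyme B, stood at 62.4, 12.9, 11.3 and 38.8 against 1.26, 0.464, 0.793 and 1.96 CPM. Fasl, the ligand of the death receptor Fas, stood at 13.4, 21.005, 16.8 and 18.2 against 0.393, 0.851, 1.25 and 0.921 CPM. Nkg7, a granule membrane protein and the most abundant gene of the cytotoxic list, stood at 1051, 1024, 1068 and 1086 against 555, 512, 522 and 557 CPM. Of 16 genes tested on that list, 6 were past 2-fold higher and none lower, with a median log2 ratio of 0.95. Gzmb was unevenly spread among cells, since it was counted in 4.29% of memory-like cells, and in the *Aire*-/- anti-PD1 library 1 cell held 80 of 141 Gzmb UMIs.

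Some chemokine and chemokine receptor genes were also higher. Ccl5 stood at 3981, 4054, 3355 and 3066 CPM against 169, 209, 229 and 358 CPM, 8.57- to 23.5-fold higher, and was the most abundant chemokine. Xcl1, the ligand of a receptor on cross-presenting dendritic cells, stood at 236, 82.9, 95.1 and 157 against 3.15, 15.2, 5.66 and 31.9 CPM, highest in the *Aire*+/+ isotype library. Of 4 chemokine genes tested 3 were past 2-fold higher, with a median log2 ratio of 3.78. Of 10 chemokine receptor genes, 4 were higher and 1 lower, with a median of 2.45. Ccr2, a receptor for monocyte chemoattractants, stood at 27.3, 25.8, 29.9 and 26.7 against 1.02, 1.55, 1.93 and 2.07 CPM and Cxcr5, the B cell follicle homing receptor, at 19.7, 24.3, 23.01 and 19.8 against 2.75, 2.63, 2.49 and 4.84 CPM. On the lower side was Ccr9, the receptor for homing to the small intestine, at 8.42, 10.7, 8.24 and 13.2 against 90.4, 84.7, 91.5 and 86.96 CPM, 6.58- to 11.1-fold lower and the furthest apart of all lower genes.

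Several receptors and surface proteins of memory T cells were higher, while 1 of 19 genes of naive cells and circulation was past the fold. Of 25 genes on the list of memory and cytokine receptors, 11 were past 2-fold higher and none lower, with a median log2 ratio of 0.94. Il2rb stood at 346, 413, 418 and 326 against 68.9996, 80.7, 97.1 and 88.3 CPM and Ly6c2, a surface protein of memory CD8 T cells, at 1261, 1310.05, 1337 and 1141 against 208, 223, 259 and 302 CPM. Cd44, the hyaluronan receptor by which memory cells are usually told from naive ones, was at 55.5, 57.9, 61.1 and 61.99 against 7.08, 7.89, 8.83 and 11.2 CPM, 5.55- to 7.83-fold higher. Il18rap, a chain of the IL-18 receptor, was 7.49- to 31.3-fold higher. Of the genes of naive cells and circulation none was past 2-fold higher and only Igfbp4 lower, at 40.9, 37.96, 52.2 and 56.5 against 305, 292, 258 and 291 CPM, and the median of the list was −0.38, below the 0.02 of all genes.

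Ccr7, the chemokine receptor that guides cells into lymph nodes, was at 279.9, 275, 307 and 355 CPM in memory-like and 569, 531, 555 and 609 CPM in marker-negative cells, lower in every library without reaching 2-fold in all. Tcf7, which encodes the transcription factor TCF-1, was at 258, 285, 275 and 289 against 347, 337, 332 and 361 CPM, and Il7r, the IL-7 receptor chain, at 446, 421, 428 and 437 against 525, 522, 504 and 596 CPM. Tcf7 was counted in 80.98% of memory-like and 80.8% of marker-negative cells (40.6% and 47.99% after thinning), against 0.260% of B cells. Klf2, a factor that keeps T cells in circulation, was the most abundant gene of the list, at 819, 759, 832 and 939 against 1037, 1009, 1045 and 1259 CPM.

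Among 26 transcription factors, 3 were past 2-fold higher and none lower, with a median log2 ratio of 0.36. Tbx21, which encodes the T-box factor T-bet, stood at 58.9, 58.2, 54.9 and 47.4 against 2.68, 4.72, 4.42 and 4.84 CPM, 9.80- to 22.03-fold higher. Myb stood at 30.2, 39.4, 29.9 and 38.3 against 7.95, 10.1, 9.97 and 12.6 CPM and Bhlhe40 at 3.77, 4.42, 12.4 and 7.16 against 0.551, 1.62, 0.679 and 1.73 CPM. Id3, an inhibitor of E proteins that is kept in long-lived memory cells, was at 132, 120.1, 117 and 168 against 61.8, 60.4, 47.7 and 62.5 CPM, higher in every library but not past the fold in all.

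Some checkpoint and adhesion genes were also higher. Of 9 checkpoint receptors, 5 were past 2-fold higher, with a median log2 ratio of 1.99, while Cd96, the most abundant, stood at 71.7, 83.3, 67.9999 and 73.3 against 94.02, 104, 90.4 and 92.7 CPM. Lag3 stood at 16.8, 13.3, 10.3 and 21.8 against 1.42, 1.47, 1.81 and 4.15 CPM, Tigit at 12.5, 18.1, 8.59 and 20.7 against 0.629, 2.09, 1.47 and 1.96 CPM and Pdcd1, which encodes PD-1 itself, at 9.29, 14.4, 4.46 and 6.06 against 2.36, 2.24, 1.93 and 1.38 CPM. Of 17 genes of residency and adhesion, 10 were higher and 1 lower, with a median of 1.91. Itgb1, the integrin beta 1 chain, stood at 237, 139, 216 and 247 against 42.2, 40.3, 41.9 and 60.7 CPM and S100a6, a calcium-binding protein, at 393, 306, 487 and 397 against 18.8, 22.3, 38.8 and 58.05 CPM. The gene past the fold in the other direction was Itgae, the CD103 integrin chain that binds E-cadherin, at 11.03, 5.16, 23.4 and 17.9 against 66.2, 75.4, 68.7 and 93.8 CPM.

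Of 25 cell cycle genes tested, 8 were past 2-fold higher and none lower, with a median log2 ratio of 0.93. H2afz, a histone variant, was the most abundant of them at 674, 660.4, 580.4 and 639.7 CPM. Mki67, the proliferation marker Ki-67, stood at 7.26, 12.5, 18.5 and 6.34 against 0.393, 0.464, 1.93 and 0.230 CPM and was counted in 2.04% of memory-like cells, 0.207% of marker-negative cells and 1.27% of B cells, or 0.546%, 0.0419% and 0.440% after thinning. In the *Aire*-/- isotype library 1 cell held 42 of 54 Mki67 UMIs. Of 10 costimulatory receptors 2 were higher (median 0.50), namely Tnfrsf9, which encodes 4-1BB, at 61.3, 53.8, 35.4 and 65.6 against 5.43, 6.65, 6.91 and 13.2 CPM and Slamf7 at 64.2, 38.3, 43.3 and 51.5 against 3.78, 4.41, 3.06 and 6.91 CPM. Few genes on the lists of interferon response, signaling and stress were past the fold. Of 37 interferon response genes 3 were higher (median −0.05), of 18 immediate early genes 1 (median −0.16), and none of 10 heat shock genes (median 0.20) or 12 genes of T cell receptor signaling (median 0.10) was past the fold.

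The rest of the 15 genes furthest apart on the higher side lie outside the lists, apart from Cd163l1, named above among genes of innate-like T cells. Plek, which encodes pleckstrin, a substrate of protein kinase C, stood at 75.5, 58.6, 73.5 and 78.8 against 3.23, 2.94, 1.47 and 5.18 CPM and Samd3 at 40.4, 39.1, 45.7 and 53.4 against 2.36, 2.79, 2.49 and 2.30 CPM. Tmem163, which encodes a zinc transporter, stood at 8.42, 9.95, 7.90 and 9.37 against 0.157, 0.387, 0.226 and 0.115 CPM, and the kinase genes Lrrk1 and Dapk2 at 20.6, 13.3, 18.2 and 15.4 against 0.393, 0.619, 1.02 and 0.806 and 9.58, 6.26, 8.59 and 11.3 against 0, 0.155, 0 and 0.691 CPM. Cd163l1 was at least 22.1-fold higher than the 0.472, 0.232, 0.113 and 0 CPM of marker-negative cells.

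On the lower side, Ifngr2, the signaling chain of the interferon gamma receptor, stood at 7.55, 4.42, 7.56 and 7.71 CPM in memory-like and 31.9, 33.8, 38.6 and 39.8 CPM in marker-negative cells, 4.22- to 7.65-fold lower. Dntt, which encodes terminal deoxynucleotidyl transferase, an enzyme of receptor gene rearrangement in the thymus, gave 1.16, 0, 0.343 and 1.38 against 7.79, 5.88, 7.59 and 7.72 CPM, at least 5.32-fold lower. Rgcc, a regulator of the cell cycle, was 3.37- to 4.82-fold lower, Ggt5, a gamma-glutamyltransferase, 4.38- to 5.04-fold, and Slc6a19, an amino acid transporter, 3.23- to 5.50-fold. Mtss1, Plaur, Ntrk3, Fxyd7, Gpr34 and Zfp286 were between 2.98- and 15.3-fold lower, and Pdlim4 at least 3.30-fold.

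**Figure D2:**
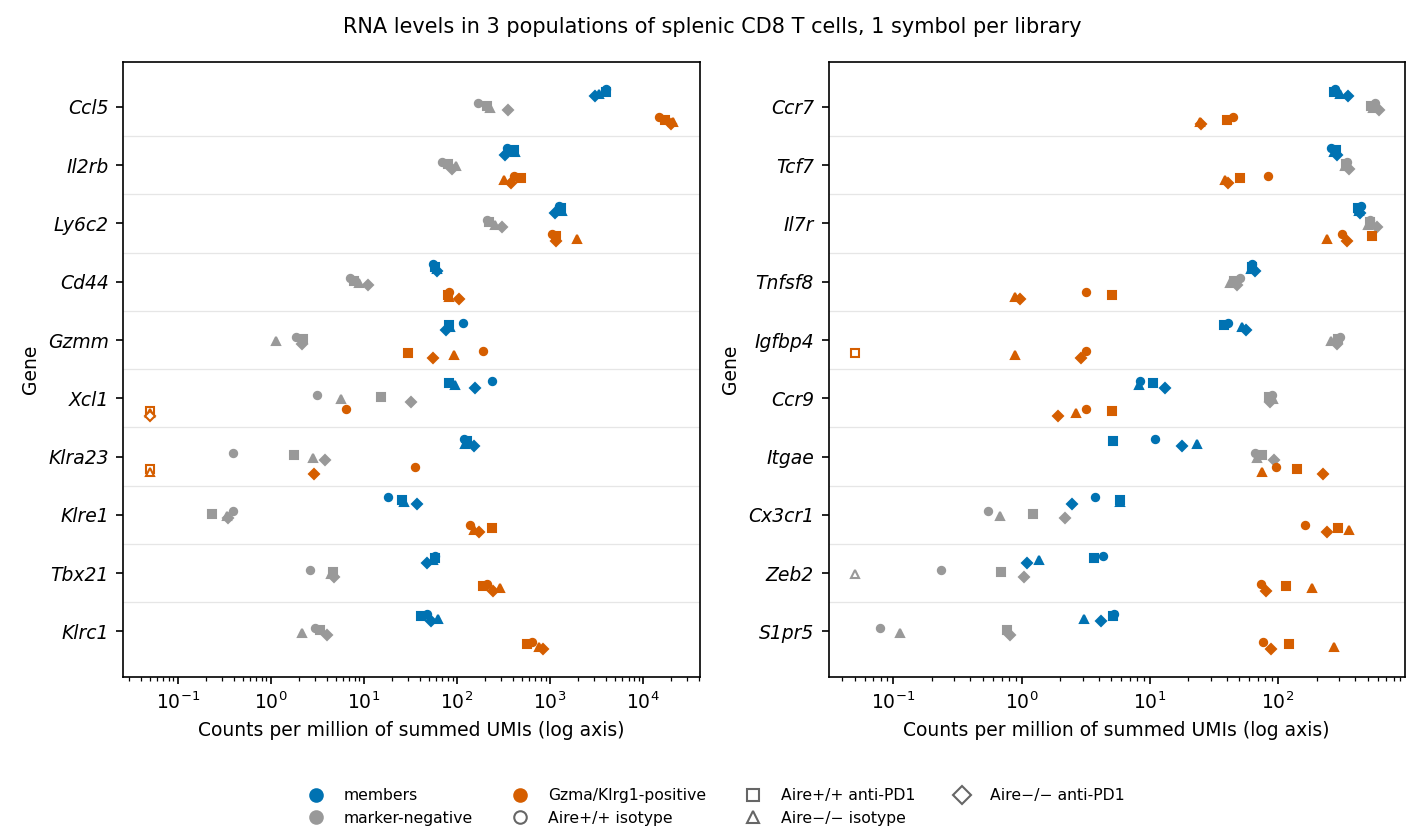
Level of each gene (x axis, CPM of summed UMIs on a log axis) in memory-like cells (members), marker-negative cells and Gzma/Klrg1-positive cells, with 1 symbol per library and open symbols at the left for 0 UMIs. Il7r and Tcf7 in memory-like cells lie near marker-negative cells, while Ccl5, Tbx21 and Klrc1 lie between both reference populations.

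The same comparison within the CD45+ spleen libraries, where 114 cells passed the rule and 458 were marker-negative, rests on separately sorted and separately run cells. All 15 of the higher genes were higher there too when summed over the 4 libraries, each with an interval that excludes 1. Of the 15 lower genes, 14 gave a ratio and all 14 were lower, 9 of them with an interval that excludes 1. Zfp286 had too few UMIs for a ratio. The CD45+ cells come from the same pooled animals and passed the same rule, so this is a repeat over cells and not over mice.

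Against Gzma/Klrg1-positive cells, memory-like cells had more RNA of several naive cell genes and less RNA of several granule genes. Outside the rule, 89 of 9440 genes (0.943%) were past 2-fold higher in the memory-like cells in all 4 libraries and 393 (4.16%) past 2-fold lower. This balance depends on the scaling. The median log2 ratio of all genes tested was −0.24, and it was 0.07 with median-of-ratios size factors, which gave 193 higher and 268 lower, and 0.15 when ribosomal protein and mitochondrial genes were left out of the total, which gave 245 higher and 239 lower. Ratios to Gzma/Klrg1-positive cells are on the CPM scale and are to be read against −0.24. Without the *Aire*+/+ anti-PD1 library, whose Gzma/Klrg1-positive cells number 34, 172 genes were higher in place of 89.

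Genes of naive cells and circulation differed in both directions. Of 19 tested, 8 were past 2-fold higher and 3 lower, with a median log2 ratio of 1.36 beside the −0.24 of all genes, and the list summed to 4402, 4499.5, 4547 and 4734 CPM in memory-like and 4071, 4792, 4399 and 4441 CPM in Gzma/Klrg1-positive cells. The 3 lower genes were S1pr4 at 91.5, 97.3, 98.2 and 106 against 240.02, 267, 295 and 301 CPM, Itga4 at 91.5, 88.8, 72.1 and 63.6 against 253, 287, 288 and 219 CPM and Itgb7 at 272, 256, 277 and 296 against 691, 826, 644 and 866 CPM, and Klf2, the most abundant of the list, was lower without passing the fold, at 1315, 1436, 1643 and 1619 CPM in Gzma/Klrg1-positive cells. Ccr7 was at 44.8, 40.3, 24.7 and 25.2 CPM in Gzma/Klrg1-positive cells, 6.25- to 14.1-fold lower than in memory-like cells, and Tcf7 at 83.2, 50.4, 38.8 and 40.7 CPM, 3.10- to 7.10-fold lower. Dapl1, a gene of resting T cells, stood at 236, 241, 219 and 181 CPM in memory-like and 28.8, 20.2, 6.17 and 8.72 CPM in Gzma/Klrg1-positive cells. Id3 at 9.60, 30.2, 13.2 and 31.02 CPM and Bcl2, the survival factor, at 64.01, 50.4, 26.5 and 43.6 CPM were also past 2-fold lower in Gzma/Klrg1-positive cells, Bcl2 standing at 284, 328, 267 and 275 CPM in memory-like cells.

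Further genes on the higher side were Tnfsf8, the CD30 ligand, at 62.4, 62.6, 61.5 and 65.8 against 3.20, 5.04, 0.882 and 0.969 CPM, and Il6ra, the IL-6 receptor, 8.14- to 11.8-fold higher. Xcl1 gave 236, 82.9, 95.1 and 157 against 6.40, 0, 0 and 0 CPM, at least 5.48-fold higher and, with at most 31.9 CPM in marker-negative cells, highest in memory-like cells in every library. St6gal1, a sialyltransferase, was 6.66- to 17.5-fold higher and Nsg2 stood at 169.6, 187, 179.6 and 202 against 12.8, 10.1, 16.8 and 10.7 CPM. Tdrp, Gm14085 and Tmem108 completed the 10, with lowest ratios of 6.31, 5.92 and 5.31.

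Many granule, migration and proliferation genes were lower in memory-like cells than in Gzma/Klrg1-positive cells. Of 16 cytotoxic genes none was higher and 8 were lower (median −1.50). Gzmb stood at 701, 595, 961 and 786 CPM and Prf1, which encodes perforin, at 147, 191, 153 and 148 CPM in Gzma/Klrg1-positive cells, against 62.4, 12.9, 11.3 and 38.8 and 44.1, 51.2, 50.1 and 55.9 CPM in memory-like cells. Ccl5 was at 14763, 17459.7, 21272 and 19899.8 CPM, 3.71- to 6.49-fold above the memory-like level. Gzmm did not follow Gzmb and Prf1 here, at 189, 30.2, 93.5 and 55.3 CPM, a range that overlaps that of the memory-like cells.

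Furthest apart was Cx3cr1, the fractalkine receptor of effector cells, at 3.77, 5.90, 5.84 and 2.48 CPM in memory-like and 163, 292, 358 and 243 CPM in Gzma/Klrg1-positive cells. S1pr5, a sphingosine phosphate receptor for exit from tissue, stood at 5.23, 5.16, 3.09 and 4.13 against 76.8, 121, 274 and 88.2 CPM and Zeb2, a transcription factor of terminal effector cells, at 4.36, 3.69, 1.37 and 1.10 against 73.6, 116, 185 and 80.5 CPM. The rule did not use these 3 genes, but it separates both populations by Gzma and Klrg1. They were also named by their rank in this comparison, so their low level in memory-like cells is a description. Adam8, Csf1, 1500009L16Rik, Anxa1, Ifitm1, Car5b and Stk32c made up the rest of the 10 on the lower side, with smallest gaps of 23.1, 23.1, 22.1, 20.003, 19.6, 17.98 and 16.4-fold. Tbx21 at 211, 191, 293 and 245 CPM and Klrc1 at 640.1, 574, 755 and 850.1 CPM in Gzma/Klrg1-positive cells put the memory-like cells between both references for these genes.

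Of 19 residency and adhesion genes none was higher and 16 were lower (median −2.47), and of 25 cell cycle genes 15 were lower (median −2.40). Among 9 chemokine receptors 1 was higher, Ccr9, and 6 lower (median −2.59), and among 9 checkpoint receptors 5 were lower (median −1.69). Of 25 memory and cytokine receptor genes, 3 were higher and 5 lower, and the median of −0.14 lies near that of all genes. Il2rb was close to level, at 409.6, 484, 322 and 379.99 CPM in Gzma/Klrg1-positive cells. Of 13 Ly49 and NK lectin genes 5 were lower and none higher. Those past the fold were lectin receptors such as Klrc1 and Klrk1, while Klra23, a Ly49 gene outside the list, was lower in the reference, at 35.2, 0, 0 and 2.91 CPM in Gzma/Klrg1-positive cells.

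The memory-like cells were not uniform, and they were divided by Klra7 and then by Eomes and Cxcr3. The 191 cells with a Klra7 UMI (48, 45, 50 and 48) were set against the other 1276, with median depths of 8619 and 8248 UMIs. Outside the rule, 23 of 9054 genes (0.254%) were past 2-fold higher in all 4 libraries and 26 (0.287%) past 2-fold lower. The genes named in these comparisons were chosen after their values were seen.

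Klra7-positive cells carried other NK receptor genes as well. Klra23 stood at 405, 373, 442 and 537 CPM in them and 76.8, 86.8, 64.9 and 107 CPM in the rest, and Klre1 at 80.2, 87.8, 91.5 and 141 against 8.72, 14.8, 15.02 and 24.1 CPM. Fcer1g, an adaptor chain that signals for NK receptors, stood at 52.02, 68.3, 26.8 and 35.3 against 1.68, 5.21, 0 and 1.86 CPM. Of 11 tested Ly49 and NK lectin genes 5 were past the fold and the median log2 ratio was 1.83, beside −0.08 for all genes. UMIs of another Ly49 gene were counted in 94 of the 191 Klra7-positive cells (49.2%, 41.9 to 56.5), in 102 of the 1276 others (7.99%, 6.56 to 9.62) and in 33 of 7229 marker-negative cells (0.456%). With close copies the counting of single Ly49 genes is uncertain, and its part in this overlap was not tested.

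Klra7-positive cells also had more Il2rb, at 544, 659, 662 and 597 against 315, 369, 373 and 293 CPM, and more Ccl5, at 6008, 5878, 6393 and 6169.6 against 3668, 3729.9, 2803 and 2685 CPM, without passing 2-fold in all libraries for either gene. Ctla2a, a cysteine protease inhibitor, was past it, at 533, 588, 544 and 547 against 244, 250.5, 269.5 and 241 CPM. Gzmk, which encodes granzyme K, Gzmb and Ifitm1, an interferon-induced membrane protein, had 0 UMIs in the Klra7-positive cells of all 4 libraries, against 19.8, 33.9, 17.05 and 27.5, 72.1, 15.2, 13.4 and 43.6 and 33.2, 42.5, 93.4 and 63.4 CPM in the others, which is at least 2.55-, 2.002- and 5.10-fold lower. Few memory-like cells held any of these, with Gzmk in 26, 18, 17 and 20, Gzmb in 18, 15, 10 and 20 and Ifitm1 in 4, 3, 10 and 7 cells. Dapl1 stood at 75.9, 14.6, 26.8 and 42.8 against 261, 282, 254 and 198 CPM and the interferon-induced gene Isg15 at 15.2, 12.2, 15.6 and 17.6 against 66.05, 39.9, 52.4 and 51.04 CPM. Of 37 interferon response genes 5 were past 2-fold lower and none higher, with a median log2 ratio of −0.67. Some genes of other lineages were also lower in Klra7-positive cells, with a median of −3.22 over 6 B cell genes, none past the fold, and −1.69 over 5 genes of CD4 and regulatory T cells, 1 past it, and their part was not tested.

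In the other division, the 398 cells with only Cxcr3 were set against the 257 with only Eomes. Their median depths were 7608.5 and 7956 UMIs. Outside the rule, 31 of 7760 genes (0.399%) were past 2-fold higher in the Cxcr3-only cells of all 4 libraries and 14 (0.18%) past 2-fold lower. Some effector and adhesion genes were higher in Cxcr3-only cells, 1 of 16 on the cytotoxic list (median 0.56). Ccl5 stood at 5020.4, 3884, 5205 and 3759 against 1263, 1094, 807 and 862 CPM, Gzmm at 109.9, 90.7, 86.8 and 58.4 against 37.5, 15.9, 16.7 and 16.1 CPM and Tbx21 at 78.2, 85.02, 68.3 and 58.4 against 33.95, 27.3, 29.7 and 16.1 CPM. Il18r1, a chain of the IL-18 receptor, was at 83.4, 99.2, 145 and 97.7 against 17.9, 22.8, 22.3 and 22.02 CPM, and Id2, an inhibitor of E proteins that rises in effector cells, at 264, 142, 356 and 189 against 60.8, 52.4, 68.6 and 42.6 CPM.

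Itgb1 stood at 477, 281, 521 and 466 CPM in Cxcr3-only and 107, 63.8, 59.3 and 85.1 CPM in Eomes-only cells. Ifitm1 was counted at 105, 139, 327 and 230.1 CPM in Cxcr3-only cells and had 0 UMIs in Eomes-only cells of all 4 libraries, at least 19.5-fold higher, though at most 10 memory-like cells of a library held any. Of 15 residency and adhesion genes 7 were past 2-fold higher and none lower, with a median log2 ratio of 1.59 beside 0.00 for all genes. Some genes of other lineages were also higher in Cxcr3-only cells, with a median of 4.46 over 6 B cell genes and 1.77 over 3 myeloid genes, none past the fold in all libraries, and Cd74 stood at 2067, 8.50, 44.1 and 396 against 1.79, 11.4, 9.27 and 13.2 CPM. Their part in this comparison was not tested. Eomes-only cells carried a different set. Tnfrsf9 stood at 180.5, 257, 134 and 220.2 CPM in them and 21.1, 0, 1.42 and 50.5 CPM in Cxcr3-only cells. Myb was at 78.6, 86.6, 66.8 and 113 against 11.6, 18.4, 18.5 and 13.5 CPM, Cd200, an inhibitory surface glycoprotein, at 111, 105, 38.9 and 38.2 against 4.23, 2.83, 4.27 and 19.1 CPM and Sox4, a transcription factor, at 32.2, 29.6, 16.7 and 13.2 against 0, 0, 1.42 and 0 CPM. Ikzf2, which encodes Helios, and Ccr9 were past 2-fold higher in Eomes-only cells as well, with lowest ratios of 2.48 and 3.05.

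**Figure D3:**
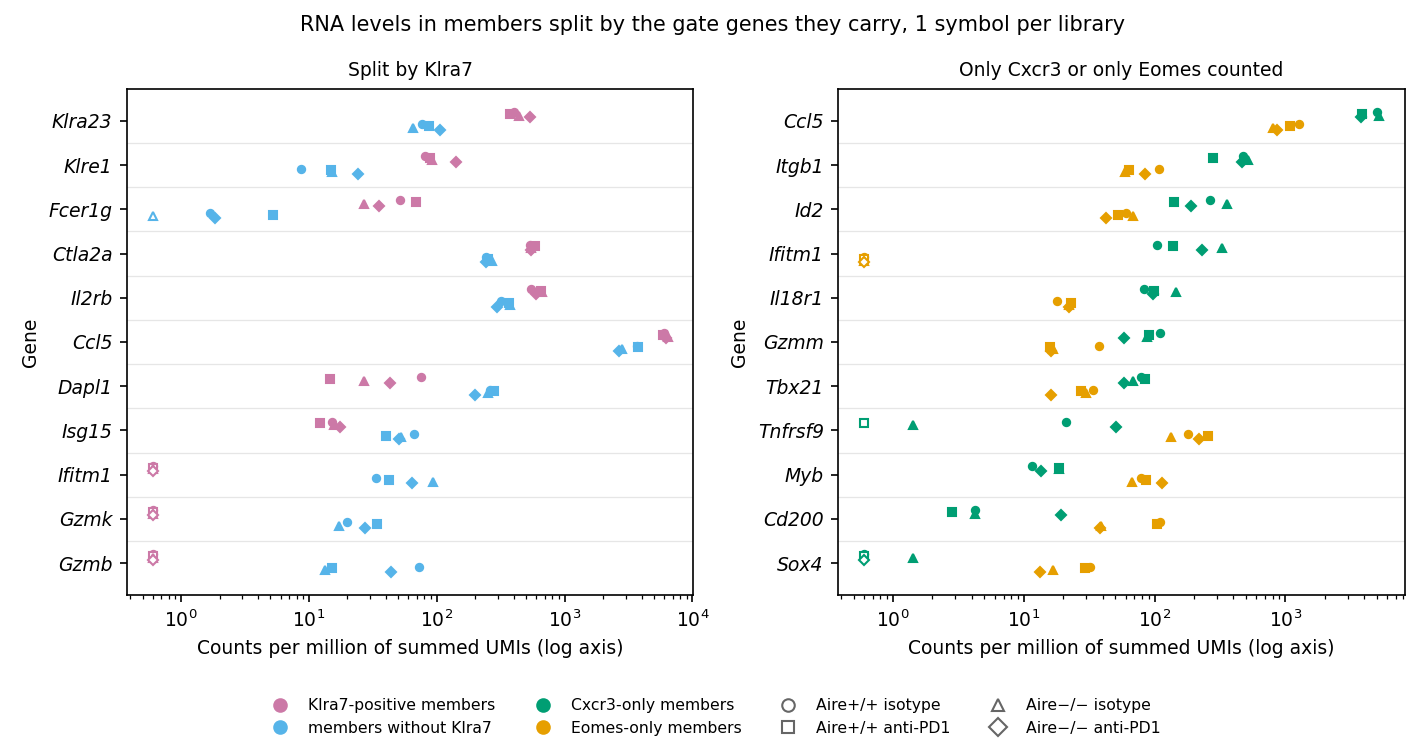
Level of each gene (x axis, CPM of summed UMIs on a log axis) in memory-like cells with and without a Klra7 UMI (left) and with only Cxcr3 or only Eomes counted (right), 1 symbol per library, open symbols at the left for 0 UMIs. Gzmk, Gzmb and Ifitm1 are at 0 in Klra7-positive cells of all 4 libraries.

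Between genotypes, few genes of the memory-like cells stood past 1.5-fold in the same direction under both treatments. Of 9062 genes with at least 40 UMIs, 69 (0.761%) were higher in *Aire*-/- cells and 67 (0.739%) lower, with a median log2 ratio of 0.01 over all genes tested. Log2 ratios of *Aire*-/- over *Aire*+/+ are given for isotype and then anti-PD1. The rule's own genes stood close together, with Eomes at 0.19 (0.02 to 0.36) and 0.24 (0.07 to 0.40), Cxcr3 at 0.05 (−0.11 to 0.20) and 0.12 (−0.04 to 0.27) and Cd8a at 0.09 (−0.01 to 0.19) and 0.35 (0.24 to 0.45), and Klra7 was lower in both strata, at −0.14 (−0.47 to 0.18) and −0.50 (−0.80 to −0.19). Gzmm, at −0.45 (−0.68 to −0.21) and −0.10 (−0.36 to 0.16), and Ccl5, at −0.25 (−0.28 to −0.21) and −0.40 (−0.44 to −0.36), lay below 0 without passing the fold.

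Most lists held no or few genes past the fold. None of 19 genes of naive cells and circulation (median 0.06), 16 cytotoxic genes (median 0.01), 9 costimulatory receptors (median −0.07) or 12 genes of T cell receptor signaling (median 0.02) was past it. Of 25 memory and cytokine receptors only Cd38, an ectoenzyme at 7.55, 9.21, 4.81 and 6.06 CPM, was past it, on the lower side, with −0.65 (−1.70 to 0.34) and −0.60 (−1.50 to 0.28) (median 0.02), and without the top cells it was at −0.56 under anti-PD1, within the fold. Of 24 transcription factors Bhlhe40 was past it, on the higher side, at 3.77, 4.42, 12.4 and 7.16 CPM, with 1.71 (0.76 to 2.75) and 0.70 (−0.34 to 1.82) (median −0.02).

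Itgae and Cxcr6 were higher in *Aire*-/- memory-like cells while marker-negative cells stayed within the fold. Itgae stood at 11.03, 5.16, 23.4 and 17.9 CPM, with log2 ratios of 1.08 (0.49 to 1.69) and 1.80 (0.95 to 2.74), against 0.06 and 0.31 in marker-negative cells. Cxcr6, a chemokine receptor of tissue T cells, stood at 60.4, 38.7, 109.6 and 82.9 CPM, with ratios of 0.86 (0.60 to 1.12) and 1.10 (0.77 to 1.43). In marker-negative cells its ratios were −0.11 (−0.25 to 0.04) and 0.30 (0.16 to 0.44). Cxcr6 was counted in 30.1% of memory-like and 29.0% of marker-negative cells over the 4 libraries. In memory-like cells of the CD45+ libraries Itgae gave 8.98, 18.9, 21.2 and 47.8 CPM (2, 4, 4 and 17 UMIs), in the same direction, but Cxcr6 gave 148, 66.1, 63.7 and 92.8 CPM (33, 14, 12 and 33 UMIs), which is lower in *Aire*-/- cells under isotype. Itgae was the only one of 17 residency and adhesion genes past the fold (median 0.05), and Cxcr6 the only one of 9 chemokine receptors (median 0.09). Whether the genotype difference itself differed between cell populations was not tested.

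Of 9 checkpoint receptors, 3 were past the fold on the lower side in *Aire*-/- memory-like cells. Pdcd1 stood at 9.29, 14.4, 4.46 and 6.06 CPM, with ratios of −1.06 (−2.11 to −0.09) and −1.25 (−2.07 to −0.46), and rests on 32, 39, 13 and 22 UMIs. Its weaker ratio turned to 0.66 when cells over 2 times the median depth were left out and to 0.74 after thinning, and in the CD45+ libraries Pdcd1 gave 26.95, 9.44, 37.1 and 11.2 CPM on only 6, 2, 7 and 4 UMIs, higher in *Aire*-/- cells under both treatments. Cd200 was at 22.9, 21.7, 9.27 and 13.5 CPM, with −1.31 (−1.99 to −0.66) and −0.69 (−1.26 to −0.12), and Entpd1, which encodes the ectoenzyme CD39, stood at 4.36, 7.37, 2.06 and 3.03 CPM, with −1.08 (−2.73 to 0.37) and −1.28 (−2.49 to −0.15). In the *Aire*+/+ libraries 1 cell held 31 of 79 and 19 of 59 Cd200 UMIs, and without the top cells the Cd200 ratio under anti-PD1 was −0.32, within the fold. None was past the fold on the higher side and the median was −0.24, with Lag3 at −0.71 (−1.40 to −0.05) and 0.71 (0.13 to 1.33) and Tigit at −0.54 (−1.31 to 0.20) and 0.19 (−0.34 to 0.74).

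Some of the genes furthest apart between genotypes were apart in marker-negative cells too. BC002163, a transcript of a gene family with near-identical copies, stood at 12.2, 13.6, 68.3 and 82.9 CPM, with ratios of 2.49 (2.0004 to 3.003) and 2.60 (2.11 to 3.14), against 2.49 and 2.75 in marker-negative cells. Dynlt1b, a dynein light chain with near-identical copies, was at 28.5, 30.6, 81.1 and 80.2 CPM, with 1.51 (1.16 to 1.87) and 1.39 (1.03 to 1.76), against 1.44 and 1.53. Rnaset2b, a ribonuclease with a near-identical copy, was the furthest apart on the lower side, at 172, 174, 62.5 and 69.98 CPM and −1.46 (−1.71 to −1.22) and −1.31 (−1.54 to −1.09), against −1.38 and −1.15. For genes with near-identical copies the count of a single copy is uncertain. In memory-like cells of the CD45+ libraries BC002163 gave 26.95, 14.2, 47.7 and 81.5 CPM, Dynlt1b 40.4, 33.05, 111 and 98.4 CPM and Rnaset2b 175, 231, 84.9 and 70.3 CPM, on 6, 3, 9 and 29, 9, 7, 21 and 35 and 39, 49, 16 and 25 UMIs, each in the direction of the sorted CD8+ libraries under both treatments. Adgrb2, an adhesion receptor, was at 4.36, 6.26, 14.8 and 15.4 CPM, with 1.76 (0.88 to 2.72) and 1.30 (0.50 to 2.18), against 0.84 and 1.42 in marker-negative cells.

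Some genes that respond to temperature and stress differed by genotype in both populations. Hsph1, which encodes a large heat shock protein, stood at 51.1, 36.9, 89.6 and 84.9 CPM, with ratios of 0.81 (0.53 to 1.09) and 1.20 (0.87 to 1.54), against 1.17 and 1.34 in marker-negative cells, and Dnaja1, a cochaperone, was at 252, 233, 454 and 391 CPM, with 0.85 (0.72 to 0.97) and 0.75 (0.61 to 0.88), against 0.79 and 0.71. Cirbp, the cold-inducible RNA-binding protein, was lower, at 95.8, 128, 55.3 and 73.3 CPM and −0.79 (−1.07 to −0.52) and −0.81 (−1.04 to −0.57), against −0.70 and −0.78. Of 10 heat shock genes, 2 were past the fold and the median of 0.33 lay above the 0.01 of all genes. Their part in the other genotype differences was not tested.

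Interferon response genes past the fold were few. Of 37 tested, 3 were higher and none lower (median 0.11), namely Ifit3b, Ifitm1 and Ifitm2. Ifit3b was at 3.77, 4.05, 6.53 and 6.34 CPM, with 0.79 (−0.30 to 1.93) and 0.64 (−0.45 to 1.83), Ifitm1 at 28.7, 36.1, 78.99 and 56.5 CPM, with 1.46 (1.11 to 1.81) and 0.65 (0.29 to 1.01) and Ifitm2 at 3.19, 4.05, 18.5 and 10.7 CPM, with 2.54 (1.59 to 3.62) and 1.41 (0.41 to 2.52). The Ifitm genes are close copies with uncertain counting. Ifitm1 was counted in 4, 3, 10 and 7 cells, and 3 cells held 98 of 99 Ifitm1 UMIs in the *Aire*+/+ isotype and 98 of 98 in the *Aire*+/+ anti-PD1 library. Without the top cells Ifit3b was at 0.49 under anti-PD1, within the fold. Ifitm2 UMIs were held by few cells, with 3 cells holding 40 of 54 in the *Aire*-/- isotype library and 26 of 39 in the *Aire*-/- anti-PD1 library, and in marker-negative cells the ratios were −2.98 and −0.46.

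Of 5 tested NK cell genes, 2 were past the fold, both lower in *Aire*-/- cells. Fcer1g was at 8.42, 14.7, 4.12 and 5.51 CPM, with −1.03 (−2.14 to −0.02) and −1.42 (−2.27 to −0.61), and Tyrobp, the adaptor DAP12, stood at 10.7, 9.95, 3.78 and 3.86 CPM, with −1.51 (−2.63 to −0.51) and −1.37 (−2.41 to −0.39). In marker-negative cells Fcer1g gave −0.08 and 1.53, and 3 cells held 28 of 37 Tyrobp UMIs of memory-like cells in the *Aire*+/+ isotype library. Of 11 Ly49 and NK lectin genes Klra9 was past it, also on the lower side, at 9.001, 5.16, 2.40 and 2.48 CPM, with −1.90 (−3.33 to −0.69) and −1.06 (−2.45 to 0.25) (median −0.16), with 3 cells holding 22 of 31 Klra9 UMIs in the *Aire*+/+ isotype library. Since Fcer1g sat mostly in Klra7-positive cells, its level rests mostly on the 13.0% of the cells with a Klra7 UMI. Of 17 immediate early genes Nr4a2, at −1.08 (−1.80 to −0.40) and −0.68 (−1.77 to 0.39), and Nr4a3, at 5.81, 5.90, 2.40 and 3.86 CPM, with −1.27 (−2.76 to 0.03) and −0.61 (−1.76 to 0.52), were lower (median −0.12), though without the top cells Nr4a2 was at 0.17 under anti-PD1. Of 24 cell cycle genes Ccnb2, a mitotic cyclin, was lower in few cells, at 15.97, 9.95, 7.90 and 2.204 CPM, with −1.02 (−1.79 to −0.29) and −2.17 (−3.52 to −0.996) (median −0.10).

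The rest of the genes named by rank have no list. On the higher side, 1810014B01Rik stood at 6.97, 11.8, 14.4 and 20.7 CPM, with 1.05 (0.29 to 1.84) and 0.81 (0.19 to 1.45). Ncf1, a subunit of the phagocyte oxidase, stood at 7.84, 6.26, 13.4 and 11.8 CPM, with 0.77 (0.03 to 1.54) and 0.92 (0.08 to 1.82). Ccdc22, a protein of endosomal sorting, stood at 9.29, 8.48, 15.8 and 14.9 CPM, with 0.77 (0.08 to 1.46) and 0.81 (0.08 to 1.58). On the lower side, Slfn10-ps, a pseudogene of the Schlafen family, was at 13.9, 11.8, 6.53 and 4.41 CPM, with −1.09 (−1.94 to −0.30) and −1.42 (−2.38 to −0.51). Sp3os was at 20.9, 22.8, 10.99 and 9.64 CPM, with −0.93 (−1.58 to −0.31) and −1.24 (−1.89 to −0.62) and Ccdc180 at 11.3, 11.8, 5.84 and 6.89 CPM, with −0.96 (−1.87 to −0.10) and −0.78 (−1.59 to 0.02). Ccdc28a was at 12.2, 13.3, 7.21 and 7.99 CPM, with −0.76 (−1.59 to 0.03) and −0.73 (−1.49 to 0.01) and Tulp4 at 16.8, 21.005, 10.3 and 11.02 CPM, with −0.71 (−1.40 to −0.05) and −0.93 (−1.55 to −0.32). In marker-negative cells, 1810014B01Rik gave 0.87 and 0.72, Ncf1 0.58 and 0.70, Slfn10-ps −0.62 and −0.91 and Sp3os −0.62 and −0.49, in the same direction in both strata. Ccdc180 gave −0.29 and −2.57, Ccdc28a −0.59 and 0.02, Ccdc22 −0.06 and 0.26 and Tulp4 0.02 and −0.31 there, each within the fold in at least 1 stratum.

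At the main settings, anti-PD1 left fewer genes past 1.5-fold in the same direction in both strata than genotype did. Of 9062 genes tested, 46 (0.508%) were higher with anti-PD1 and 46 (0.508%) lower, with a median log2 ratio of 0.01. The order depends on the setting. With a minimum of 10 UMIs, 146 genes were higher for anti-PD1 against 139 for genotype, and 138 against 174 lower. With a marker sum of at least 3 the counts were 73 against 65 higher and 58 against 80 lower. Log2 ratios of anti-PD1 over isotype are given for *Aire*+/+ and then *Aire*-/- cells. The rule's own genes were near level, with Eomes at 0.10 (−0.08 to 0.28) and 0.15 (−0.01 to 0.31) and Cxcr3 at −0.04 (−0.21 to 0.12) and 0.02 (−0.13 to 0.18), and Gzmm was at −0.49 (−0.73 to −0.25) and −0.15 (−0.40 to 0.11). Of the lists for other lineages, 6 B cell genes had a median of −1.36 for anti-PD1 and −0.46 for genotype and 4 myeloid genes −0.15 and −0.39, none past the fold. The 5 genes of CD4 and regulatory T cells had medians of −0.08 and −0.21. Of these, 1 was past the fold, Cd40lg, which was lower with anti-PD1. The genotype and anti-PD1 comparisons use the same 4 libraries and are not independent.

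Gzmk was the only gene of 16 on the cytotoxic list past the fold. It stood at 17.1, 28.7, 14.4 and 24.5 CPM, with ratios of 0.75 (0.24 to 1.26) and 0.77 (0.22 to 1.33). It was counted in 26 of 368, 18 of 314, 17 of 337 and 20 of 448 memory-like cells, so its level follows a small group of cells. With anti-PD1 the share of cells that held Gzmk was not higher in either genotype, while its CPM was. In the CD45+ libraries Gzmk gave 49.4, 99.1, 15.9 and 42.2 CPM (11, 21, 3 and 15 UMIs) in memory-like cells, in the same direction within both genotypes. The other genes named by rank on the higher side were seen at low levels. Sppl2b, an intramembrane protease, was at 6.39, 11.8, 4.46 and 13.2 CPM, with 0.88 (0.06 to 1.74) and 1.57 (0.66 to 2.58) and Zswim7 at 6.10, 10.3, 4.12 and 12.1 CPM, with 0.76 (−0.11 to 1.65) and 1.56 (0.61 to 2.61). Zcchc18 was at 13.1, 20.3, 13.1 and 20.4 CPM, with 0.63 (0.04 to 1.23) and 0.64 (0.06 to 1.25), Foxj2, a forkhead factor, at 4.94, 11.4, 6.53 and 9.92 CPM, with 1.21 (0.31 to 2.16) and 0.60 (−0.24 to 1.49) and Zfand1 at 12.2, 18.4, 9.96 and 16.3 CPM, with 0.60 (−0.03 to 1.22) and 0.71 (0.04 to 1.40). With at least 100 UMIs, these 6 were all the genes past the fold on that side.

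Of 17 immediate early genes, 2 were past the fold with anti-PD1, both lower and in few cells. Nr4a1 stood at 32.2, 7.002, 18.2 and 10.5 CPM, with ratios of −2.203 (−2.99 to −1.49) and −0.80 (−1.44 to −0.17), and Nr4a2 at 18.9, 6.63, 8.93 and 4.13 CPM, with −1.51 (−2.35 to −0.74) and −1.11 (−2.13 to −0.14), while marker-negative cells gave 0.72 and 0.62 for Nr4a1 and 1.98 and 0.61 for Nr4a2. In the *Aire*+/+ isotype library 3 cells held 84 of 111 Nr4a1 UMIs, and in the *Aire*-/- isotype library 1 cell held 21 of 26 Nr4a2 UMIs. Without the top cell of each gene the weaker Nr4a2 ratio turned to 0.95 and that of Nr4a1 was −0.46, within the fold. The median of the list was −0.11, and Fos was at −0.78 (−1.58 to −0.03) and 1.90 (0.99 to 2.94) and Nr4a3 at 0.02 (−1.02 to 1.04) and 0.68 (−0.72 to 2.23).

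Further lower genes were spread over several lists. Klrk1 stood at 46.7, 29.8, 64.2 and 35.3 CPM, with ratios of −0.65 (−1.05 to −0.25) and −0.86 (−1.20 to −0.53), the only one of 11 Ly49 and NK lectin genes past the fold (median −0.16). Of 37 interferon response genes Isg20, an exonuclease, at 17.7, 8.84, 15.8 and 9.92 CPM, with −1.002 (−1.75 to −0.30) and −0.67 (−1.34 to −0.01), and Mx1, an antiviral GTPase, at 11.3, 7.37, 9.62 and 4.13 CPM, with −0.62 (−1.48 to 0.19) and −1.22 (−2.23 to −0.26), were past it (median −0.08). Of 24 cell cycle genes Ccnb2 was, at −0.68 (−1.40 to 0.01) and −1.84 (−3.21 to −0.63). With a marker sum of at least 3 the weaker ratio turned to 0.00645 for Isg20 and to 0.14 for Ccnb2, and without the top cell it turned to 0.10 for Ccnb2. Cd40lg, the CD40 ligand, was at 16.3, 2.21, 5.15 and 2.204 CPM, with −2.88 (−4.38 to −1.67) and −1.22 (−2.67 to 0.10), the only one of 9 costimulatory genes past the fold (median 0.05), and 1 cell held 43 of 56 Cd40lg UMIs in the *Aire*+/+ isotype library. Without the top cells Cd40lg was at −1.36 and −1.32.

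The rest of the lower genes named by rank lie outside the lists. Abcg1, a cholesterol exporter, stood at 34.8, 21.005, 33.3 and 19.3 CPM, with ratios of −0.73 (−1.21 to −0.26) and −0.79 (−1.25 to −0.33), and Prkaa1, a catalytic subunit of AMP-activated kinase, at 20.9, 12.9, 22.7 and 14.1 CPM, with −0.70 (−1.32 to −0.09) and −0.69 (−1.25 to −0.14). After thinning the weaker Prkaa1 ratio turned to 1.08. AK010878 was at 13.9, 7.002, 16.8 and 9.09 CPM, with −0.99 (−1.84 to −0.20) and −0.89 (−1.57 to −0.22) and Ppm1k, a mitochondrial phosphatase, at 12.5, 7.002, 12.4 and 7.99 CPM, with −0.83 (−1.70 to −0.02) and −0.63 (−1.39 to 0.12). None of 9 checkpoint receptors was past the fold (median 0.23), and Pdcd1, whose product the antibody binds, was at 0.63 (−0.08 to 1.35) and 0.44 (−0.61 to 1.55). None of 19 genes of naive cells and circulation (median 0.03), 25 memory and cytokine receptors (median −0.04), 24 transcription factors (median −0.04), 9 chemokine receptors (median −0.12) or 17 residency and adhesion genes (median −0.27) was past it either.

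**Figure D4:**
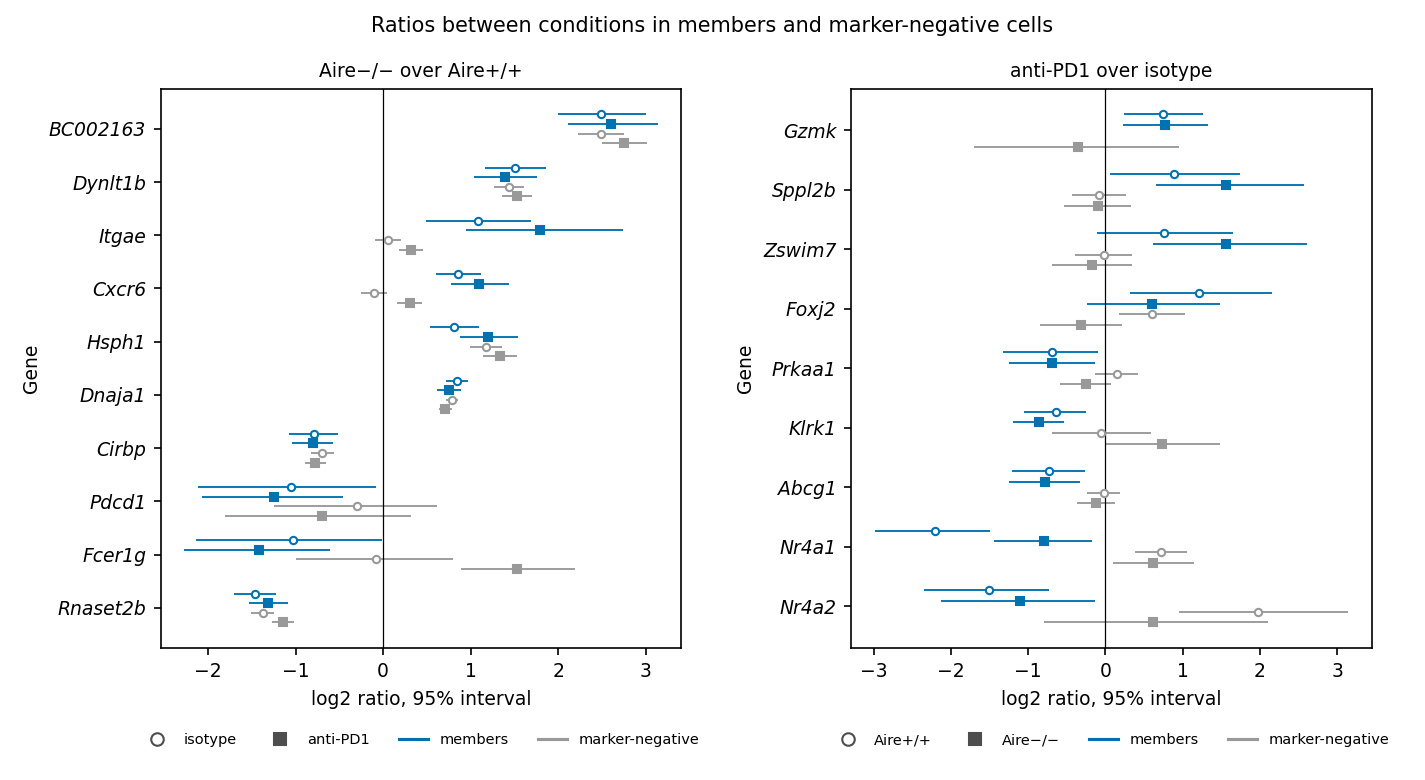
Log2 ratio with exact 95% counting interval (x axis) for each gene (y axis) between genotypes (left) and treatments (right), in memory-like cells (members, blue) and marker-negative cells (gray), with open circles and filled squares for the 2 strata of each comparison. Itgae and Cxcr6 lie apart from marker-negative cells in the left panel, and BC002163, Dynlt1b, Cirbp and Rnaset2b lie on them.

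Tumor CD8+ cells that pass the same rule had a different profile. In the 4 tumor CD8+ libraries, 1028 of 8315 CD8 T cells passed, at 12.8% (11.5 to 14.2), 11.2% (9.88 to 12.7), 11.4% (9.98 to 13.04) and 13.7% (12.2 to 15.2). Pdcd1 stood at 378, 798, 478 and 594 CPM in them and Tnfrsf9 at 744, 853, 706 and 641 CPM, against at most 14.4 and 65.6 CPM in the splenic memory-like cells. Gzmb stood at 2441, 2547, 2832 and 2695 CPM and Tcf7 at 60.5, 43.8, 70.1 and 57.1 CPM, while Gzmm was at 12.4, 8.92, 17.6 and 7.78 CPM. Tcf7 and Gzmm were thus higher in the splenic cells and Pdcd1, Tnfrsf9 and Gzmb in the tumor cells, and the name memory-like is used for the splenic cells only. Tissue and library cannot be told apart in this comparison.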

How the data were processed

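The deposited tables hold unnormalized UMI counts, 1 row per gene and 1 column per cell barcode, as the authors made them with Cell Ranger on a GRCm38 build. The 25127 rows were summed by symbol to 24495. No further cell filter was applied beyond the rule, and doublets were neither scored nor removed, apart from the conditions on Cd79a, Siglech, Ncr1 and Klrb1c. UMIs were summed over the cells of a population in each library and divided by all UMIs of those cells. Genes needed 40 UMIs over both populations, or over the memory-like cells of the 4 libraries for conditions. A side at 0 UMIs was set to 3 counts and gives a bound, and no ratio was formed where that floor lay past the other side. Genes of the rule were left out of the counts of genes past a fold between populations and on the lists. They were kept among all genes tested between conditions. Shares have Clopper-Pearson 95% intervals, and ratios have conditional exact 95% intervals.

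The members and lists were chosen with earlier results of these data known. Genes are named by rule: the markers and the genes of the rule; the most abundant genes of each list and those past the fold; genes ranked by their smallest ratio, 15 in each direction against marker-negative cells, 10 against Gzma/Klrg1-positive cells and up to 10 for each condition, with at least 100 UMIs; and Aire. Some genes that this rule selects are not reported here. Thinning drew UMIs without replacement. Python 3.11.15, numpy 2.4.6, scipy 1.17.1 and matplotlib 3.10.9 were used.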

Additional observations from a re-analysis of the deposited data

Results flagged for a closer look

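Several list genes of the memory-like cells had condition ratios of opposite direction in the 2 strata of a comparison, past 1.5-fold with both counting intervals clear of 0. Both intervals stayed clear of 0, in the same directions, when the cells with MHC class II RNA and the cell with the most UMIs of the gene were left out of each library. Whether the ratios differed between strata was not tested. Ccl4, a chemokine, had a log2 ratio of *Aire*-/- over *Aire*+/+ of −2.65 with isotype and 2.18 with anti-PD1, and of anti-PD1 over isotype of −2.48 in *Aire*+/+ and 2.35 in *Aire*-/- cells. A single cell held 171 of 312 Ccl4 UMIs in the *Aire*+/+ isotype library and another 112 of 267 in the *Aire*-/- anti-PD1 library, against 3 of 44 and 4 of 42 in the *Aire*+/+ anti-PD1 and *Aire*-/- isotype libraries.

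Xcl1 was at −1.31 with isotype and 0.92 with anti-PD1 for genotype, and at −1.51 in *Aire*+/+ and 0.73 in *Aire*-/- cells for anti-PD1, with 306 of 813 Xcl1 UMIs in 1 cell of the *Aire*+/+ isotype library. Gzmb was at −2.27 in *Aire*+/+ and 1.78 in *Aire*-/- cells for anti-PD1, with 58 of 215 Gzmb UMIs in 1 cell of the *Aire*+/+ isotype library and 80 of 141 in 1 cell of the *Aire*-/- anti-PD1 library. Irf8 was at −2.003 and 1.12 in the same order, and 128 of its 229 UMIs in the *Aire*+/+ isotype library lay in the 4 cells with MHC class II RNA. Fos, an immediate early gene, was at −1.76 with isotype and 0.93 with anti-PD1 for genotype.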

How the results depend on the processing

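The alternatives were other thresholds of the rule, cell filters, depth, denominators, minimum counts and scalings, each library left out in turn, and, added after the data were seen, leaving out cells with MHC class II RNA or the cell with the most UMIs of each gene. Of 164 values for shares and counts of genes, 131 stayed within their limits, which are the counting interval for shares and 1.5 times for counts, 32 moved past them and 1 reversed. Of 609 values for named genes, 551 stayed within the interval of the main value, 51 moved past it and 7 reversed. The cause was not tested unless stated.

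In the CD45+ libraries the ratio of shares was 1.35 for genotype with anti-PD1 and 1.61 for anti-PD1 in *Aire*-/- mice, and it turned to the other side of 1 for anti-PD1 in *Aire*+/+ mice, at 1.08, and for genotype with isotype, at 0.906. The latter is counted as moved and not as reversed because its main interval includes 1. Thinned to 2000 UMIs, the ratios were 2.11 for genotype with anti-PD1, 1.68 for anti-PD1 in *Aire*-/- mice and 0.996 for genotype with isotype. Thinning, which leaves fewer UMIs and fewer genes to test, left 23 genes lower by genotype, 23 lower with anti-PD1, 102 higher and 9 lower against marker-negative cells, and 33 higher and 80 lower against Gzma/Klrg1-positive cells. Of the named genes, 6 of 20 for genotype, 2 of 16 for anti-PD1, 14 of 30 against marker-negative cells and 10 of 20 against Gzma/Klrg1-positive cells were then past the fold.

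A minimum of 100 UMIs, which tests fewer genes, left 29 higher and 21 lower for genotype, 6 higher and 16 lower for anti-PD1 and 176 higher against marker-negative cells. A minimum of 10 UMIs, which tests more, gave 139, 174, 146 and 138 for the conditions in that order. Against Gzma/Klrg1-positive cells, median-of-ratios size factors gave 193 higher genes, a total without ribosomal and mitochondrial genes 245 higher and 239 lower, and the top cell left out 142 higher and 234 lower. With each library left out in turn, the higher genes numbered from 99 to 172. With a marker sum of at least 3, 73 genes were higher with anti-PD1 and 9 of 16 named genes stayed past the fold.

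Directions reversed for the weaker log2 ratio of Pdcd1 by genotype, at 0.66 without deep cells and 0.74 after thinning, and by anti-PD1 for Ccnb2 at 0.14 and Isg20 at 0.00645 with a marker sum of at least 3, Prkaa1 at 1.08 after thinning, and Nr4a2 at 0.95 and Ccnb2 at 0.10 without the top cell. Outside the genes counted here, Nr4a2 by genotype turned to 0.17 without the top cell.

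Populations were compared within each library and conditions within each stratum, but no paired test was run. Each condition has 1 library per sort and tissue. Pooled animals leave the spread between mice unmeasured, and counting intervals do not cover it. Depth limits the rule, which counts a Gzma or marker transcript only where it was captured. Genes under 40 UMIs were not tested.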
